A study of Mus musculus with 82 samples.

Results

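The kallikrein-related peptidases of skin and their inhibitor Spink5 were followed in dorsal skin of mice after whole-body X-rays. The list held 10 genes, namely Klk5, Klk6, Klk7, Klk8, Klk9, Klk10, Klk11, Klk13, Klk14 and Spink5. A gene entered through a probe whose accession carried its symbol, and where several probes did, the one with the highest mean log2 intensity over all 82 arrays was kept. A probe was found for 9 of the 10 members among 18679 genes with a probe, and Klk13 had none. The filter on dim probes left 8 members, among 15751 genes with a tested probe, because Klk14 was well above background on 3 of 82 arrays.

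The animals were male C57BL/6 mice that received 0 (sham), 1, 3, 6 or 20 Gy in a single exposure. Sham mice were transported, anesthetised, shaved and biopsied like the others, without radiation. Dorsal skin was biopsied repeatedly in the same animals, so earlier wounds are shared by all groups including sham. The time points (TPs) were h2, which was 2 h after exposure, and d4, d7, d21 and d28, named by the day. Mice given 20 Gy were followed to d7 only. In this order of TPs, sham had 4, 4, 4, 2 and 2 arrays. The 1 Gy group had 4, 4, 2, 4 and 4 arrays, the 3 Gy group 5, 5, 3, 4 and 3, the 6 Gy group 4, 4, 2, 3 and 4, and the 20 Gy group 4, 4 and 3 up to d7. Each array set the RNA of 1 biopsy, labelled with Cy5, against a universal mouse reference RNA, labelled with Cy3, and the values given are log2 ratios of Cy5 over Cy3. Precision is limited by how many arrays a group has. A whole biopsy mixes epidermis, dermis, fat and hair follicles, and in such material fewer cells of a type and less RNA per cell cannot be told apart.

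Kallikreins of skin are secreted serine proteases made by the upper living layers of the epidermis. They are stored in lamellar granules, released below the cornified layer and activated in a cascade in which Klk5 can activate itself and then Klk7 and Klk14. The active enzymes cut the desmosomal proteins that hold dead corneocytes together, so that the surface can be shed. Spink5 encodes LEKTI, a chain of Kazal-type inhibitor domains that is released into the same space and holds the cascade back, and loss of it causes Netherton syndrome, with an overactive cascade and a leaky barrier.

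All the kallikreins listed lie side by side on chromosome 7 of GRCm38.p6, in the order Klk14, Klk13, Klk11, Klk10, Klk9, Klk8, Klk7, Klk6 and Klk5, from position 43680880 to 43851181. The sequences upstream of Klk5, Klk7 and Klk8 are shown because these genes moved most alike over the arrays and were lower after 20 Gy at every TP. Each is the 250 bases before a transcript start of RefSeq in GRCm38.p6 on the plus strand, at chr7:43842019-43842268 for Klk5, chr7:43811044-43811293 for Klk7 and chr7:43797327-43797576 for Klk8, with matches to the searched motifs in capitals. For Klk5 this start, and for Klk8 the end of the window, lies inside the annotated gene, which has an earlier start.
Klk5: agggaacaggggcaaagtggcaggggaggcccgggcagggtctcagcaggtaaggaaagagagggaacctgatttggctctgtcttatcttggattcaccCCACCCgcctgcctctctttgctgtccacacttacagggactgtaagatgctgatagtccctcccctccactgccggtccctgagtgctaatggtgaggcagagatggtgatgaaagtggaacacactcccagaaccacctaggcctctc
Klk7: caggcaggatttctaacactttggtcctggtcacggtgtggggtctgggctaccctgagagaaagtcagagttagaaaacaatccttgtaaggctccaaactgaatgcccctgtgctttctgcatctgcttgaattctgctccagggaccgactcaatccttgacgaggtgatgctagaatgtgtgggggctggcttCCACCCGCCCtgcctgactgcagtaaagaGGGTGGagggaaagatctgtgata
Klk8: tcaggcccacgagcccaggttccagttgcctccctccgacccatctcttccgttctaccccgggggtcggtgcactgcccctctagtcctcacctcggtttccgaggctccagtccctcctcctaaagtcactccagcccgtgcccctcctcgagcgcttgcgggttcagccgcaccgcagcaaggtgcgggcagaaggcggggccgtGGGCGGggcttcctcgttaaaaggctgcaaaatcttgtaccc
The motifs, searched on both strands, were the TATA box (TATAAA), the AP-1 site (TGANTCA), the GC box (GGGCGG), the CACC box (CCACCC) and the Grainyhead site (AACCGGTT). The CACC box was present in 7 of the 11 windows listed for the 9 kallikreins, against 28.1% of 32851 windows of all genes, and among the sequences shown it is in those of Klk5 and Klk7. The GC box was present in 4 of 11, against 32.7% of all windows, and it is in those of Klk7 and Klk8. In the Klk7 window, a CACC box and a GC box on the other strand overlap, so a single run of capitals holds both. None of the 11 windows held the TATA box, the AP-1 site or the Grainyhead site, which were in 12.4%, 6.75% and 0.116% of all windows. The motifs are matches of letters and not measured binding.

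The arrays differed in ways that touch every member. All 11 arrays of 20 Gy, 8 of 16 sham arrays and 6 arrays of the sublethal doses were read on 1 of 2 scanners, scanner 1, and the other 57 by scanner 2. The standard deviation of all log2 ratios on an array ranged from 0.60 to 1.23 over the series. Its median was 0.82 after 20 Gy, against 1.03 on the sham arrays of the same scanner, and the median Cy5 intensity was 30 against 53.8. At d7 the 2 sham arrays of scanner 1 belonged to the same scan session as the 3 arrays of 20 Gy, and the other 2 sham arrays were read on scanner 2. The 2 sham arrays of that session had standard deviations of 0.64 and 0.65 and median Cy5 intensities of 23 and 23.5. On the 3 arrays of 20 Gy at d7 these were 0.60 to 0.70 and 22 to 26.5, so narrow ratios were not particular to irradiated skin there. All 4 arrays of the 20 Gy group at h2 were on 1 slide and its 4 arrays at d4 on another, and slide and group cannot be told apart for them. Markers of suprabasal epidermis were present throughout, with at least 5 of 6 tested markers well above background on every array.

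In unirradiated skin the members spread widely against the reference RNA. Spink5 had the highest ratio, with a mean log2 ratio of 6.82 ± 0.16 (SD, n = 3) in sham at h2, followed by Klk7 with 5.23 ± 0.74 (SD, n = 4), Klk5 with 4.17 ± 0.41 (SD, n = 4) and Klk8 with 3.58 ± 0.62 (SD, n = 4). Klk6 and Klk10 were near each other, at 2.74 ± 0.94 and 2.55 ± 0.97 (SD, n = 4). Klk9 followed with 0.97 ± 0.38 and Klk11 with 0.33 ± 0.18 (SD, n = 4). These are ratios to the reference and not amounts of transcript, so they do not rank the genes by their level in skin. Klk11 was well above background on 54 of 82 arrays and the other tested members on 80 to 82. Klk14, a protease known to activate others of the cascade, was not well above background on any sham array.

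**Figure D1:**
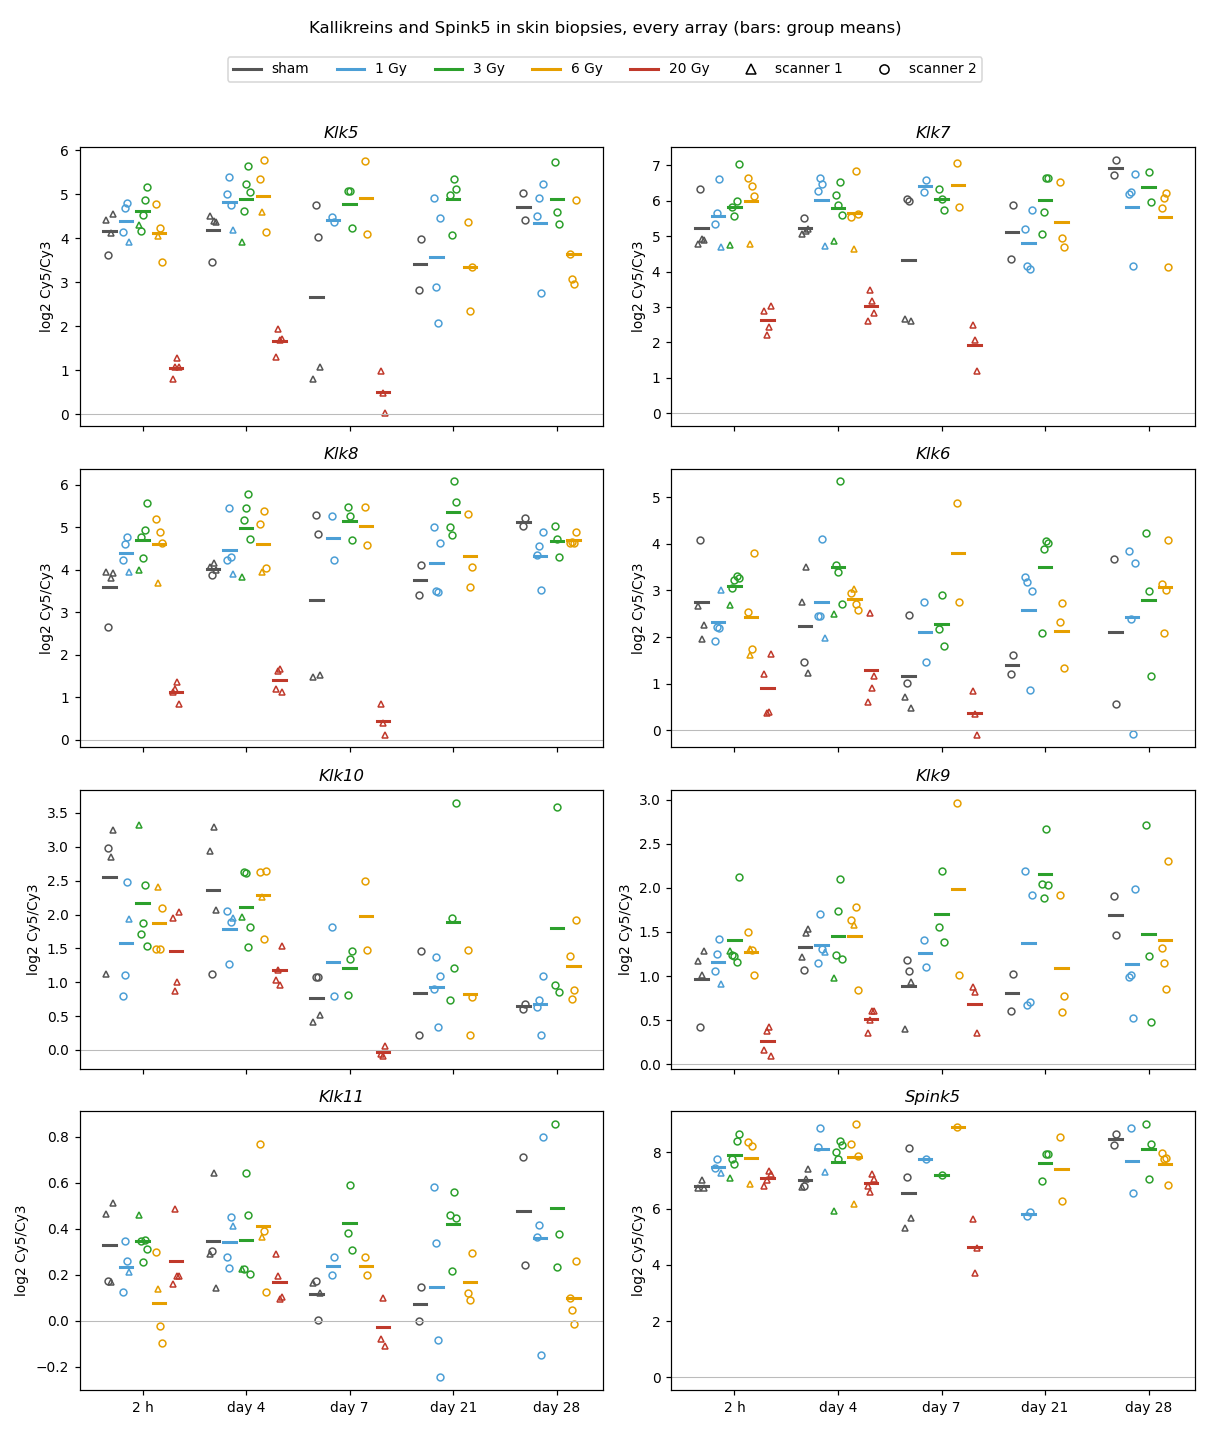
Log2 Cy5/Cy3 of each tested member on every array, by TP (x axis) and dose (colour). Triangles are arrays of scanner 1, circles those of scanner 2, and bars are group means. Klk5, Klk7 and Klk8 of the 20 Gy arrays sit at the bottom of their panels at h2 and d4, and at d7 they lie beside the 2 sham arrays of the same scanner.

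The lethal dose was compared with sham at each TP, to ask whether transcription in skin responded to it within the first week. Klk5, Klk7 and Klk8 were lower after 20 Gy at h2, d4 and d7, by 4.48-fold to 8.63-fold for Klk5, 4.59-fold to 6.05-fold for Klk7 and 5.46-fold to 7.12-fold for Klk8. Klk6 was also lower at h2 and Klk10 at d4. In all, 4 of 8 tested members were called lower at h2, 4 of 8 at d4 and 3 of 8 at d7, and 0 were called higher at any of these TPs. A call required a Benjamini-Hochberg adjusted p below 0.05 in limma and a fold change of at least 2. Of all 30323 tested probes, 6.61%, 6.52% and 1.89% were called lower at h2, d4 and d7, and 7.6%, 6.5% and 1.2% higher. The 11 calls fell to 5 when the background model was fitted on all spots, damaged ones included, and to 3 with the ratio computed by the scanner. The first of these settings called 3.32%, 5.1% and 0.623% of all tested probes lower at the TPs in order, and the scanner's ratio 24.6%, 21.4% and 7.72%, more than the fit described here.

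Klk5 encodes the protease placed at the start of the cascade. At h2 its log2 ratios were 4.41, 3.62, 4.11 and 4.55 in sham and 0.81, 1.08, 1.28 and 1.09 after 20 Gy. At d4 they were 4.50, 3.46, 4.40 and 4.38 in sham and 1.31, 1.95, 1.70 and 1.72 after 20 Gy. Groups did not overlap at either TP. At d7 the sham values were 0.80, 4.75, 4.03 and 1.08 and those after 20 Gy 0.99, 0.50 and 0.03, so the groups overlapped, the pair of low sham values being the arrays of scanner 1. The log2 fold change was -3.11 (SE 0.56, adjusted p 1.11e-05, limma) at h2, -2.51 (SE 0.56, adjusted p 0.000329, limma) at d4 and -2.16 (SE 0.60, adjusted p 0.018, limma) at d7.

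Klk7 is a chymotrypsin-like enzyme that cuts corneodesmosin and desmocollin. At h2 its log2 ratios were 4.78, 6.34, 4.93 and 4.89 in sham and 2.88, 2.20, 2.44 and 3.02 after 20 Gy. At d4 they were 5.07, 5.51, 5.14 and 5.20 in sham and 2.62, 3.48, 3.18 and 2.84 after 20 Gy, again without overlap. At d7 the sham arrays gave 2.66, 6.04, 5.99 and 2.59 and the 20 Gy arrays 2.49, 2.08 and 1.19, the highest of which lay just under the low sham pair. Its log2 fold changes were -2.60, -2.20 and -2.40, with SE of 0.59, 0.59 and 0.64 and adjusted p of 0.00042, 0.00299 and 0.0126 (limma). Klk7 had 2 other tested probes, which were also below sham at each TP but were called lower at a single TP each. The first gave -1.20, -0.43 and -2.19 and was called at d7, and the second gave -1.22, -2.11 and -1.74 and was called at d4.

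Klk8, also named neuropsin, is a trypsin-like kallikrein that takes part in shedding. Its sham values at h2 were 3.94, 2.65, 3.81 and 3.93 and its values after 20 Gy 1.12, 1.21, 1.36 and 0.85. At d4 the sham arrays lay between 3.87 and 4.17 and the 20 Gy arrays between 1.13 and 1.66. At d7 the sham arrays gave 1.48, 5.28, 4.85 and 1.52 and the 20 Gy arrays 0.84, 0.39 and 0.12. The groups did not overlap at any of the 3 TPs. For this and the other members, the share of all tested probes without overlap was not counted. The log2 fold changes were -2.45, -2.63 and -2.83, with SE of 0.50, 0.50 and 0.54 and adjusted p of 7.54e-05, 3.14e-05 and 0.00019 (limma).

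Within scanner 1 alone, the differences at h2 and d4 held and those at d7 shrank. At h2 and d4 the log2 fold changes on scanner 1 were -3.29 and -2.76 for Klk5, -2.23 and -2.11 for Klk7, and -2.76 and -2.68 for Klk8, all called. At d7 they were -0.44 for Klk5 (adjusted p 0.264, limma) and -0.71 for Klk7 (adjusted p 0.156, limma), neither of them called. Klk8 was still called there, at -1.05 (adjusted p 0.000957, limma). These within-scanner fits called 7.72%, 7.87% and 1.29% of all tested probes lower at h2, d4 and d7. With the scan session as a block in the fit of all arrays, the same d7 estimate for Klk8 had an adjusted p of 0.337 (limma).

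The d7 calls of Klk5 and Klk7 also rested on single animals. Leaving out sham mouse 2 or 3 gave adjusted p of 0.206 or 0.182 for Klk5 and of 0.123 or 0.157 for Klk7 (limma). Leaving out mouse 23 or 24 of the 20 Gy group gave 0.082 or 0.16 for Klk5 and 0.051 or 0.159 for Klk7.

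**Figure D2:**
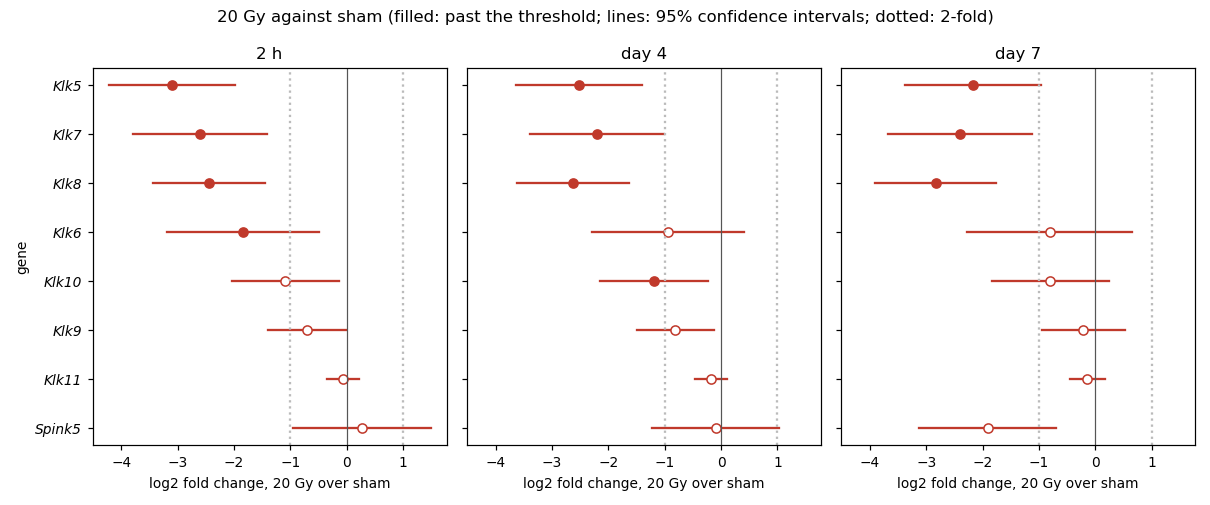
Log2 fold change of 20 Gy over sham (x axis) for each tested member (y axis) at h2, d4 and d7, with 95% confidence intervals as lines. Filled points passed the threshold of adjusted p and fold change, and dotted lines mark a 2-fold difference. The filled points are Klk5, Klk7 and Klk8 in all 3 panels, Klk6 at h2 and Klk10 at d4, while Spink5 lies near 0 until d7.

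Ratios far from 0 moved toward 0 on the 20 Gy arrays as a whole, and this bears on the members because Klk5, Klk7 and Klk8 have high ratios. At d7 the sham arrays of scanner 1 were as narrow as those of 20 Gy, so the sham side of the d7 values mixes narrow and wider arrays. Among all tested probes with a mean sham ratio between 3 and 4, the median log2 fold changes after 20 Gy were -1.84, -1.71 and -1.60 at h2, d4 and d7, and 68.1%, 62.2% and 43.5% of them were called lower. Between 4 and 5 the medians were -1.33, -1.42 and -1.51. Probes with a sham ratio below -2 had medians of 1.59, 1.45 and 0.73 in the opposite direction. The lower quartile at h2 was -2.27 between 4 and 5, the range of Klk5, -2.41 between 3 and 4, the range of Klk8, and -1.85 above 5, the range of Klk7, and each of the 3 genes lay below its own. At d4 the quartiles between 4 and 5 were -2.65 and -0.22, and Klk5 and Klk8 both lay inside them, while Klk7 was below the lower quartile of -1.79 above 5. At d7, where the mean sham ratio of Klk5 was 2.67, the lower quartiles were -1.93 for its range, -2.39 for that of Klk7 and -2.51 for that of Klk8, so Klk7 at -2.40 was level with its quartile and the others below theirs. The part of the narrower ratios in the fold changes of the members was not tested. After quantile normalization between arrays, which gives every array the same spread, Klk5, Klk7 and Klk8 were still called at each TP, with Klk5 at -2.82, -2.03 and -2.04, Klk7 at -1.90, -1.46 and -1.76, and Klk8 at -2.18, -2.23 and -2.96. In that setting 7.23%, 6.15% and 3.74% of all tested probes were called lower, and among those with a sham ratio between 3 and 4 the medians were -1.35, -1.10 and -0.97 and 52.2%, 47.2% and 40.3% were called lower.

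**Figure D3:**
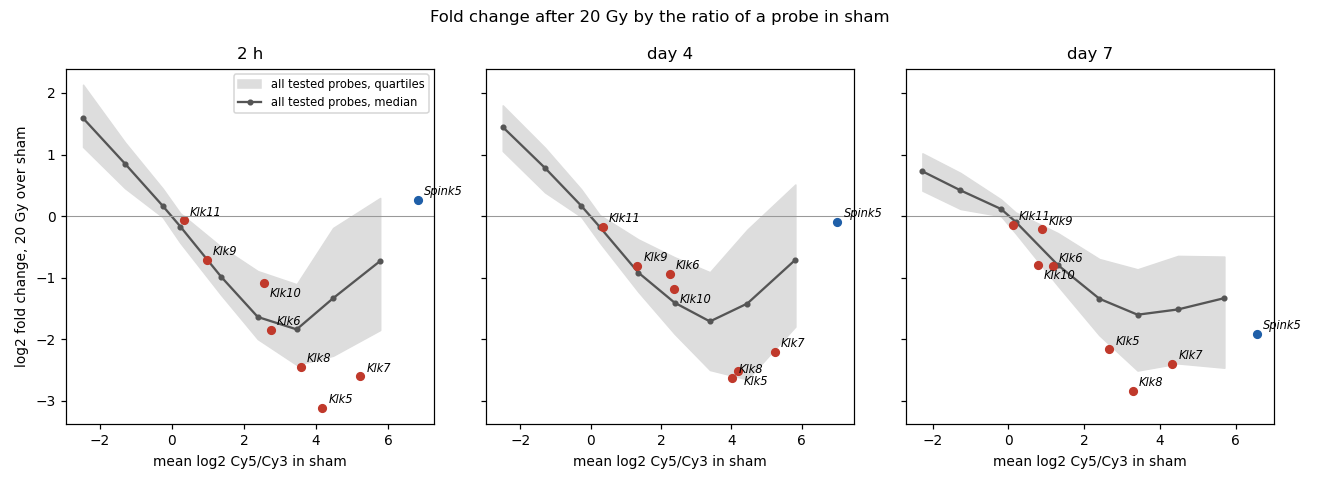
Log2 fold change of 20 Gy over sham (y axis) against the mean log2 Cy5/Cy3 in sham (x axis), with the median and quartiles of all tested probes in bins of the sham ratio in grey, kallikreins in red and Spink5 in blue. The grey line falls below 0 as the sham ratio grows, to a median of -1.84 at h2 for ratios between 3 and 4, and Klk5 lies under the grey band at h2 and inside it at d4.

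The source of the ratio mattered for Klk7. With the log ratio written by the scanner software, Klk7 was above sham after 20 Gy, by 0.61 at h2 and 1.05 at d4, and Klk8 was -0.32 and -0.38 there without a call, whereas Klk5 at h2 was -1.32 and called. In the normalized log2 values the authors deposited, Klk7 and Klk8 were called lower at every TP, with Klk7 at -1.21, -1.34 and -1.13 and Klk8 at -1.24, -1.34 and -1.58, and Klk5 missed the 2-fold threshold at -0.92, -0.71 and -0.85. Of all probes, 2.22%, 2.27% and 2.35% were called lower in those values.

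Spink5, the inhibitor, was not called at any TP after 20 Gy. At h2 its log2 ratios were 6.72, 7.00 and 6.75 in sham, with 1 sham spot flagged as an outlier and left out, and 6.79, 7.02, 7.33 and 7.23 after 20 Gy. At d4 they were 6.78, 6.79, 7.07 and 7.42 in sham and 6.79, 6.60, 7.24 and 7.07 after 20 Gy. The groups overlapped at both TPs. The log2 fold change was 0.27 at h2, with a 95% confidence interval of -0.95 to 1.49, and -0.09 at d4, with one of -1.22 to 1.04, and both intervals reach a 2-fold difference. At d7 the sham values were 5.31, 7.14, 8.14 and 5.66 and those after 20 Gy 5.62, 3.73 and 4.62. The d7 difference was -1.91 (SE 0.61, adjusted p 0.0502, limma) and was not called, but with the mouse as a block it was -1.93 (adjusted p 0.0458, limma) and was. Within scanner 1 it was -0.83 (adjusted p 0.163, limma). The change of the 20 Gy effect from h2 to d7 was -2.18 (SE 0.86, adjusted p 0.0973, limma), short of the threshold. In the authors' deposited values Spink5 was lower at all 3 TPs, at -1.20, -1.36 and -1.07, and called each time, unlike in the fit of the scanner intensities.

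Klk6 and Klk10, trypsin-like members with lower ratios, differed less. Klk6 at h2 gave 2.67, 4.08, 1.95 and 2.27 in sham and 1.21, 0.36, 0.40 and 1.63 after 20 Gy, without overlap. Its log2 fold change there was -1.84 (adjusted p 0.0289, limma), and the call was lost without mouse 1, 2, 22 or 23, with adjusted p from 0.0523 to 0.12. Values at d4 and d7 were -0.94 and -0.81 and were not called. Klk10 at d4 gave 2.94, 1.13, 3.30 and 2.07 in sham and 1.04, 1.17, 0.96 and 1.53 after 20 Gy, which overlapped. Its difference of -1.18 had an adjusted p of 0.0499 (limma), which became 0.051 with the mouse as a block, and the call was lost without any 1 of mice 1, 4, 5, 21, 22, 23 or 24, with adjusted p from 0.0556 to 0.216, and held without mouse 2. Its differences at h2 and d7 were -1.09 and -0.80, and at d7 all 3 values after 20 Gy, between -0.09 and 0.06, lay below all 4 of sham.

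Klk9 and Klk11, with the lowest mean ratios of the tested members, were not called at any TP after 20 Gy. Klk9 at h2 lay between 0.09 and 0.42 after 20 Gy and between 0.42 and 1.28 in sham, and its log2 fold changes were -0.71, -0.81 and -0.21 with adjusted p of 0.105, 0.0624 and 0.857 (limma). Klk11 gave -0.07, -0.17 and -0.14. It was not well above background on any 20 Gy array at d7. Over the 8 tested members the median log2 fold changes at the TPs in order were -1.47, -1.06 and -1.36, against -0.005, -0.02 and 0.02 over all tested probes.

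A direct comparison of 20 Gy with 6 Gy, the highest sublethal dose, asked whether the lethal dose stood apart without sham. Klk5, Klk7 and Klk8 were lower after 20 Gy at h2, d4 and d7, among 14 calls of 24. The log2 differences were -3.07, -3.30 and -4.42 for Klk5, -3.36, -2.63 and -4.52 for Klk7, and -3.47, -3.21 and -4.57 for Klk8, with adjusted p of at most 0.000536 (limma). At h2 the 4 called members included Klk9 as well, at -1.02, and at d4 only these 3 were called. The call of Klk9 at h2 was lost without mouse 16, 21 or 24, at -0.94, -0.98 and -0.96, and in 7 other settings, among them the deposited values at -0.27, and with the ratio computed by the scanner it was 0.65. At d7 all tested members other than Klk11 were called, 7 of 8, with Spink5 at -4.24, Klk6 at -3.45, Klk10 at -2.01 and Klk9 at -1.31. Of all tested probes, 7.77%, 5.53% and 6.11% were called lower at h2, d4 and d7, and 6.59%, 5.21% and 3.68% higher. The share called lower was larger among probes with a high ratio after 6 Gy. Between 4 and 5 it was 68.9%, 62.6% and 77.8%, with median differences of -2.40, -1.84 and -2.99. Above 5 it was 56%, 37% and 78.3%, with medians of -1.55, -1.06 and -3.08. The part of this shift in the differences of the members was not tested. At h2 and d4, 1 of the 4 arrays of 6 Gy was read on scanner 1, against all 4 of 20 Gy. At d7 the 6 Gy group held 2 arrays of scanner 2, and 1 for Spink5, against 3 arrays of scanner 1. With the scan session as a block none of the 7 kept its call at d7, and the differences of Klk5, Klk7 and Klk8 were then -0.96, -1.14 and -1.02. Without mouse 18 the calls of Klk6, Klk9 and Klk10 at d7 were lost, at -2.38, -0.33 and -1.51. With the ratio computed by the scanner, Klk7 was above 6 Gy at h2 and d4, by 0.60 and 0.85. The 14 calls fell to 5 with that ratio, which called 22.9%, 18.9% and 11% of all probes lower, and to 1 with the background model fitted on all spots, which called 1.18%, 1.3% and 1.34%.

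The sublethal doses were compared with sham during the first week. None of the 72 member tests at 1, 3 and 6 Gy over h2, d4 and d7 was called, and the lowest adjusted p was 0.273 (limma). At an unadjusted p under 0.05 with at least a 2-fold difference, 15 tests were higher and 0 lower. Of the 15, 13 were at d7 and 2 at h2. At d7, 1.44%, 1.32% and 1.76% of all tested probes passed the same threshold higher after 1, 3 and 6 Gy. At h2 it was 1% and 1.15% after 3 and 6 Gy, the doses of the 2 tests. Of all tested probes, 0.0726% were called higher at d4 and 0.0066% at d7 after 6 Gy, 0.0132% at h2 and at d7 after 1 Gy, and 0.0033% at d4 after 3 Gy. The shares called lower were 0.0066% at h2 after 1 Gy and 0.0033% at d4 after 6 Gy. All other shares of these 9 comparisons were 0%. The authors' deposited values gave 10 calls, all higher. They were 2 at h2 and 3 at d4 after 1 Gy, where 0.432% and 0.712% of all probes were called higher, 1 at h2 and 3 at d4 after 3 Gy, with 0.191% and 0.323%, and 1 at d7 after 6 Gy, with 0.732%. A fit of scanner 2 alone gave 2 calls, for Klk8 at h2 after 3 and 6 Gy, where 1.17% and 1.31% of all probes were called higher, and it rested on the only sham array of that scanner at h2, whose Klk8 value of 2.65 was the lowest of sham at that TP.

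All d7 arrays of the sublethal doses were read on scanner 2, whereas 2 of the 4 sham arrays were read on scanner 1 and were low for Klk5, Klk7 and Klk8. Against all 4, after 6 Gy the log2 fold changes at d7 were 2.25 for Klk5, 2.64 for Klk6, 2.12 for Klk7, 1.74 for Klk8, 1.096 for Klk9 and 1.21 for Klk10. Their unadjusted p lay between 0.00164 and 0.0423 and their adjusted p between 0.284 and 0.613 (limma). Spink5 was at 2.33 there, but it had 1 usable array at d7 after each of 1, 3 and 6 Gy. Klk5 gave 5.75 and 4.09 on the 6 Gy arrays, and Klk6 4.88 and 2.74 against 0.71, 1.02, 2.48 and 0.48 in sham. The 6 Gy values of Klk5 lay on either side of the higher sham pair of scanner 2. After 3 Gy at d7, Klk5 gave 5.07, 5.08 and 4.23, at 2.13 above sham, and Klk8 5.47, 5.27 and 4.69, at 1.86 above it. After 1 Gy at d7 the differences of Klk5, Klk7 and Klk8 were 1.76, 2.10 and 1.47. Against the 2 sham arrays of scanner 2 alone, none of these was called. After 1, 3 and 6 Gy, Klk5 was then 0.03, 0.40 and 0.53, Klk7 0.40, 0.03 and 0.43, and Klk8 -0.31, 0.09 and -0.04. After 6 Gy, Klk6 was then 2.06, Spink5 1.25, Klk10 0.90 and Klk9 0.87. Probes with a sham ratio between 3 and 4 as a whole had median differences of 1.07, 0.93 and 0.98 at d7 after 1, 3 and 6 Gy.

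At h2 and d4, Klk8 was 1.12 above sham at h2 after 3 Gy and 1.02 after 6 Gy, with unadjusted p of 0.02 and 0.0443. Klk10 was below sham in all 6 comparisons, by the most at -0.98 at h2 after 1 Gy (unadjusted p 0.0457, adjusted p 0.342, limma), but in the deposited values it was above sham in 5 of them, by 0.14 to 0.72, and -0.09 in the other. Spink5 was above sham in each of these 6 comparisons, by 0.66 to 1.11, with adjusted p of at least 0.38 (limma). Without sham mouse 2 or 3, the sham arrays of scanner 2 at d7, Klk5 and Klk8 would be called higher at d7 after both 3 and 6 Gy, for example Klk5 after 3 Gy at 2.82 without mouse 2 (adjusted p 0.00857, limma). The 2 arrays of scanner 1 then made up most of the sham group. Without mouse 2, 0.502% and 0.326% of all tested probes were called higher at d7 after 3 and 6 Gy. Without mouse 3 it was 0.284% and 0.739%, against 0% and 0.0066% with all mice.

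**Figure D4:**
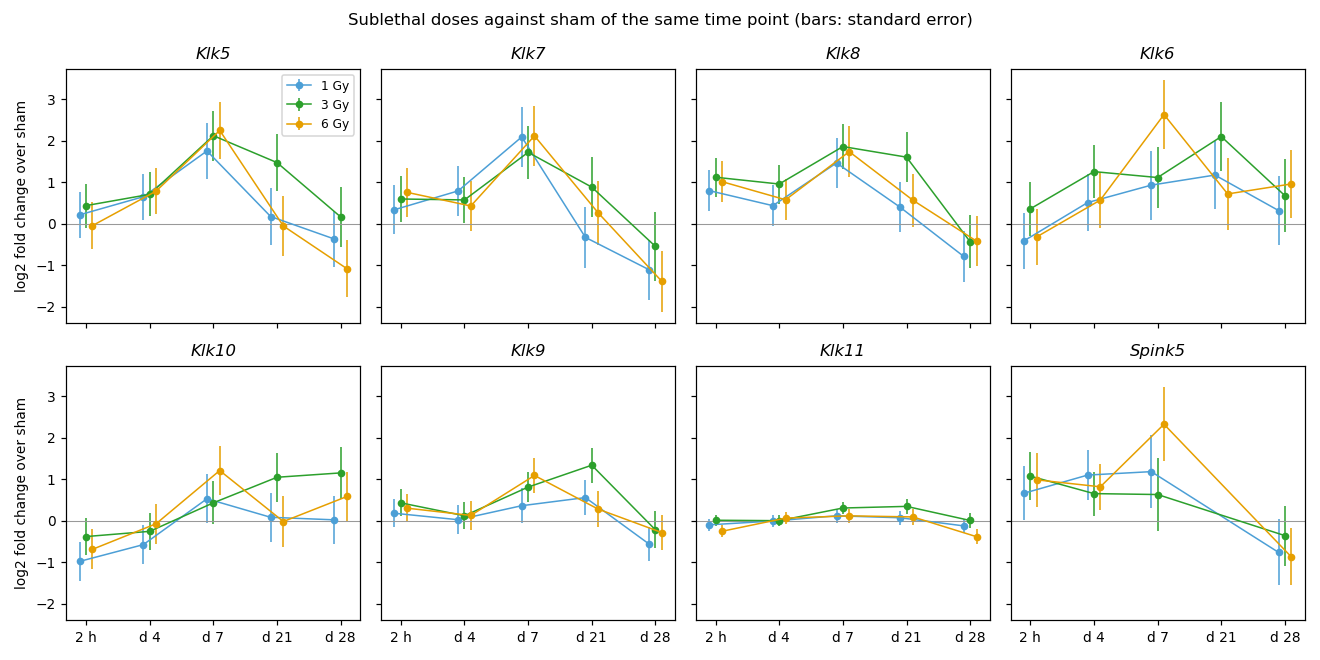
Log2 fold change over sham of the same TP (y axis) for each tested member after 1, 3 and 6 Gy (colours), by TP (x axis), with standard errors as bars. The highest point is that of Klk6 after 6 Gy at d7, at 2.64, and Klk7 after 6 Gy at d28 lies at -1.39. Spink5 has no point at d21.

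At the late TPs none of the 45 member tests was called either, with a lowest adjusted p of 0.383 (limma). Of all tested probes, 0.00333% were called higher at d21 after 3 Gy and 0.0033% at d28 after 6 Gy, and 0.0099%, 0.00331% and 0.0033% were called lower at d28 after 1, 3 and 6 Gy, with 0% in the other cases. After 3 Gy at d21 the differences were 2.10 for Klk6, 1.61 for Klk8, 1.48 for Klk5 and 1.34 for Klk9, all with unadjusted p under 0.05 and with no overlap between the 4 irradiated and 2 sham arrays. The share of all tested probes at that p or without overlap was not counted, and with 2 sham arrays a lack of overlap says little. Klk9 at d21 gave 2.04, 1.88, 2.66 and 2.03 after 3 Gy and 0.60 and 1.02 in sham. At d28 after 6 Gy, Klk7 was -1.39, with values of 5.80, 6.06, 6.21 and 4.13 against 6.72 and 7.15 in sham (adjusted p 0.472, limma). Klk11 was not well above background on the sham arrays of d21. Spink5 was flagged as an outlier spot on 16 of 82 arrays, including both sham arrays of d21, and so has no d21 comparison.

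The late effect, over d21 and d28, was set against the early effect, over the first week, to ask whether sublethal responses turned with time. None of the 21 tests of members was called, with all tested probes called in 0% to 0.0434% of cases lower and 0% to 0.0501% higher. The late minus early difference was negative for 14 of 21. Its lowest values were -1.79 for Klk7 after 1 Gy, and -1.66 for Klk7 and -1.57 for Klk5 after 6 Gy, with adjusted p of 0.353, 0.346 and 0.346 (limma). In the authors' deposited values 8 members' differences were called lower, 4 at 1 Gy and 4 at 6 Gy, namely Klk5, Klk7, Klk8 and Spink5 at both doses. Those values called 0.877%, 0.0165% and 0.514% of all probes lower after 1, 3 and 6 Gy. A slope over 0, 1, 3 and 6 Gy was called for none of the members in 39 tests over the 5 TPs, with 0.0033%, 0.102%, 0.00661%, 0% and 0.122% of all probes called with a positive slope over the TPs and 0%, 0.0132%, 0%, 0% and 0.0298% with a negative one. At d7 the slopes of Klk5, Klk6, Klk7, Klk8 and Klk9 had unadjusted p under 0.05 and were positive. The largest was 0.40 log2 units per Gy, for Klk6. The slope of Spink5 was positive as well, with 1 usable array at each of 1, 3 and 6 Gy. The share of all probes at that unadjusted threshold was not counted. All sublethal arrays of d7 were read on scanner 2 and 2 of the 4 sham arrays on scanner 1, so dose and scanner are partly confounded in these slopes.

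Genes around the cascade were described from lists by role. For these lists and the cell type markers below, the shares of all tested probes after 20 Gy serve as a background. At h2, d4 and d7 they were 6.61%, 6.52% and 1.89% called lower and 7.6%, 6.5% and 1.2% called higher. The share called lower was larger among probes with a high sham ratio, at 68.1% at h2 between 3 and 4. The part of this shift in the counts of the lists was not tested. Among 8 other proteases of the epidermis, 5 were lower at h2 after 20 Gy, 4 at d4 and 3 at d7, and 1 was higher at d7. Prss8, which encodes prostasin, and St14, which encodes matriptase, a protease upstream of the kallikreins, were -2.50 and -1.24 at h2. Tmprss13, a membrane-bound serine protease, gave -2.88, -2.17 and -1.74, and Ctsc, the activator of many granule proteases, -2.63, -2.33 and -1.64. Casp14, which acts on filaggrin, was lower at h2 and d4, at -1.52 and -1.55. Ctsl, a lysosomal cysteine protease, was the exception, at 1.57 at d7.

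Inhibitors other than Spink5 went in both directions. Slpi, a secreted inhibitor of leukocyte and skin serine proteases, was higher at all 3 TPs, by 3.23, 2.58 and 1.62. Cst6, cystatin M/E, was higher at h2 and d4, by 1.84 and 1.65. Spint1, an inhibitor of matriptase and prostasin, was lower at h2 and d7, at -2.02 and -1.47, and Wfdc5 and Wfdc12 were lower at h2. Of 6 inhibitors, 2, 2 and 1 were thus higher and 3, 0 and 1 lower at h2, d4 and d7.

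The kallikrein substrates of the cornified layer, a list of desmosomal and filaggrin genes, were split on the same arrays. Dsg1a was lower at all 3 TPs, at -3.93, -3.71 and -3.22, while its close paralog Dsg1b was higher at h2 and d4, by 3.16 and 3.27, and -0.17 at d7. These genes are near-identical copies, and cross-hybridization between their probes was not tested. Dsc1 and Cdsn, which encode desmocollin 1 and corneodesmosin, were lower at h2, at -2.13 and -1.10. In all, 3, 1 and 1 of 5 tested substrates were lower and 1, 1 and 0 higher. F2rl1, the receptor that Klk5 can activate, was -0.71 at h2, short of 2-fold, and none of the 5 genes of the receptor list was called at any TP.

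The other kallikreins are mainly glandular enzymes of the same cluster. Of 16 genes, 11 were tested, and 2 were lower at h2, Klk1 at -1.23 and Klk1b3 at -1.20, with 0 called at d4 and d7. The median of the 11 was -0.15, -0.23 and 0.03. Of 4 tested Spink genes other than Spink5, Spink2 and Spink12 were lower at h2, at -1.19 and -1.16. Many Klk1b genes are near-identical, so their probes may read several of them. None of the genes of these 6 lists was called at any TP after 1, 3 or 6 Gy.

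The summed level of the suprabasal markers, given as the mean log2 ratio of 6 genes, lay between 4.77 and 5.02 in sham and between 4.18 and 4.71 after 20 Gy at h2, between 4.95 and 5.17 against 4.54 and 4.95 at d4, and between 3.88 and 5.86 against 3.23 and 3.58 at d7. The ranges of sham and 20 Gy did not overlap at any of these TPs, but at d4 the gap was smaller than the rounding. The correlation of this level with the mean of the tested kallikreins over 82 arrays was r = 0.82 and with Spink5 over 66 arrays r = 0.78. At h2 single markers went in opposite directions, with Ivl (involucrin) at -2.53 and Dsc1 at -2.13 called lower and Lor (loricrin) at 1.47 called higher, so 2 were lower and 1 higher of 6. Of 4 markers of basal epidermis, 3 went the other way at h2 and d4, when Krt5, Krt14 and Krt15 were higher, Krt5 by 2.85 and 3.07. Col17a1, the remaining marker, was not called at these TPs and was below sham at h2. At d7 all 4 were below sham, with a median of -0.77 and 1 called lower. The medians of 5 adipocyte markers over the TPs in order were -1.07, -1.39 and -3.11, with 3, 4 and 4 of them called lower. At d7 the median of 6 fibroblast markers was -4.17, with 5 called lower, and that of 4 sebaceous gland markers -2.44, with 3 called lower. At h2 and d4 these medians were 0.22 and -0.08 for fibroblast markers and 0.19 and -0.40 for sebaceous gland markers. Over h2, d4 and d7 they were -1.87, -0.02 and -1.20 for 6 hair follicle markers, with 1, 0 and 0 called lower. On single arrays 0 to 6 of these 6 were well above background. For 5 leukocyte markers the medians were 0.70, -0.48 and -1.64, with 0, 0 and 3 called lower and 1, 1 and 0 higher. Skeletal muscle markers gave 0.01, -0.47 and -0.47, and erythroid markers -0.63, -1.64 and -2.03. Adipocyte markers had r = 0.73 with the kallikrein mean. For the remaining lists this r was 0.49 (sebaceous gland), 0.41 (erythroid), 0.29 (skeletal muscle), 0.28 (leukocyte), 0.20 (hair follicle), 0.16 (fibroblast) and -0.16 (basal epidermis). The part of these cell types in the differences of the kallikreins was not tested.

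The members moved together over the arrays. Over 82 arrays the 28 pairs of tested members had Pearson r from 0.22 to 0.93 with a median of 0.52. Klk5 and Klk8, whose starts lie 36.6 kb apart, had the highest value of r = 0.93, followed by Klk7 and Klk8, 13.8 kb apart, with r = 0.91 and Klk5 and Klk7 with r = 0.88. Klk10, between Klk9 and Klk11, had r of 0.22 and 0.27 with its neighbours. Klk8 and Klk9, whose starts are 5.91 kb apart, had r = 0.75. Spink5, which lies on chromosome 18, had r = 0.79 with Klk7 over 65 arrays and r = 0.72 and 0.71 with Klk5 and Klk8.

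Group means and properties of the arrays moved with these values. With each group mean removed, the median r was 0.39, while Klk5 and Klk8 still had r = 0.86 and Klk7 and Spink5 r = 0.76. Within scanner 1 the median was 0.62 over 25 arrays and within scanner 2 0.43 over 57. The mean of the kallikreins had r = 0.83 with the standard deviation of all log2 ratios on an array and r = 0.80 with its median Cy5 intensity, and Spink5 r = 0.74 and 0.64. With the part linear in that standard deviation removed, the median r of the pairs fell to 0.28, with Klk5 and Klk8 at 0.80, Klk7 and Klk8 at 0.77 and Klk7 and Spink5 at 0.45. Arrays share slides, scanners and animals, so these correlations are descriptions.

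**Figure D5:**
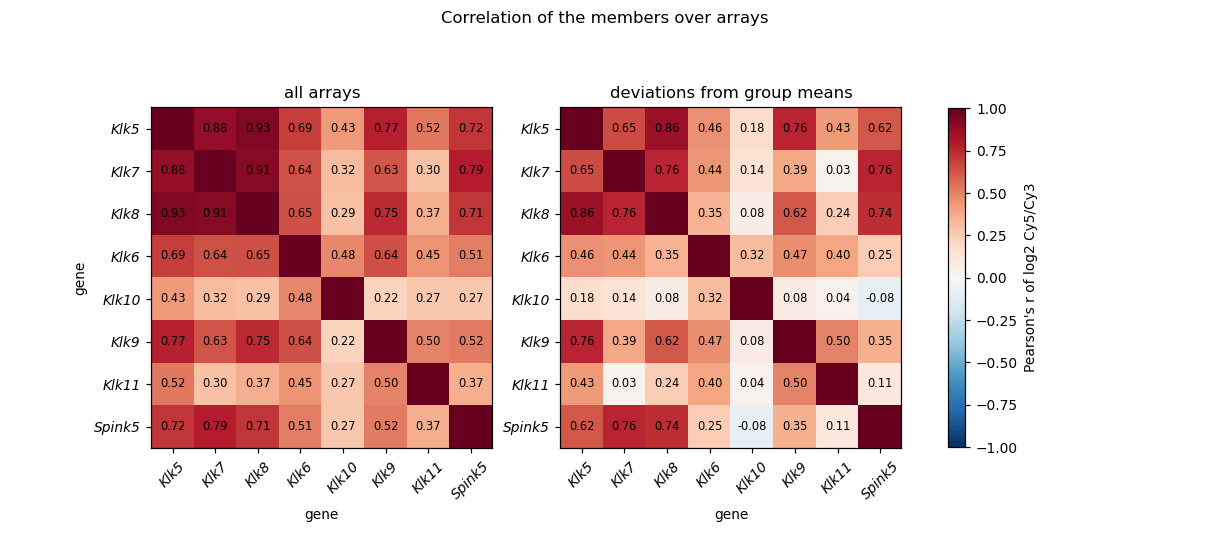
Pearson's r of log2 Cy5/Cy3 between tested members over all arrays (left) and of deviations from group means (right), as colour and number. The highest value in both panels is that of Klk5 and Klk8, with r of 0.93 at left and 0.86 at right, and the lowest at left is that of Klk9 and Klk10, at 0.22.

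Genes outside the list were ranked by their likeness to the members, as Pearson r over arrays among 15647 genes with a symbol. Among the genes most like the kallikrein mean were Ano9 (r = 0.95), Gdpd3 (r = 0.95), Gpr160 (r = 0.93) and Nipal2 (r = 0.93) over 82 arrays. Within scanner 2 the r of these 4 lay between 0.77 and 0.88. The genes most like Spink5 were Serpinb5 (r = 0.89), Ccl21a (r = 0.86), Teddm3 (r = 0.86), Acer1 (r = 0.86) and Asprv1 (r = 0.86) over 66 arrays. Serpinb5 encodes maspin, Acer1 an alkaline ceramidase of the epidermis and Asprv1 a protease that processes filaggrin. Asprv1 after 20 Gy had log2 fold changes of -0.78, 0.19 and -2.11 over the TPs and was called lower at the last.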

How the data were processed

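The members and all gene and marker lists were chosen with earlier results of these data known. RNA of 82 skin biopsies was labelled with Cy5 and hybridised with a Cy3-labelled universal mouse reference, without a dye swap. The authors scanned the arrays and extracted spot intensity values with Agilent Feature Extraction 11.0.1.1. The deposited scanner files hold the median signal and background intensity of each channel and a log10 ratio written by the scanner software. The table of normalized log2 values that the authors deposited correlated with the own array at r = 0.649 to 0.977, with column medians from -0.0147 to 0.0150, and its exact normalization is not given in the sources used here.

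Intensities were corrected with normexp (offset 50) and normalized with loess within arrays in limma 3.58.1 under R 4.3.3, giving the 1639 control spots of 45018 no weight and leaving out 25056 outlier spots (0.704%). After the data were seen, 422 spots (0.0114%) with a local background more than 50 above their signal were also left out, because with them the estimated noise rose to 1776 in Cy5 and 5182 in Cy3 on some of 25 affected arrays, against at most 3.30 and 4.87 without them. Testing was limited to probes well above background on 50% or more of some group's arrays, 30323 of 41174. Of the probes, 27553 (66.9%) had a gene symbol through their accession.

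All groups entered 1 limma model with a mean per dose and TP, as the groups of 2 arrays borrow the spread of the others, and Benjamini-Hochberg adjustment ran over all tested probes. A call needed an adjusted p below 0.05 together with at least a 2-fold change, and for a slope the adjusted p alone. The text names every member, genes of the lists that were called (at most 5 per list by size, with those a list is best known for), and the 5 genes most like the members, of which 1 is not reported here. Mouse numbers pair samples because the same animal was biopsied repeatedly, so the mouse also served as a block. Deviations from group means correlated with a median r of 0.05 over 111 pairs of arrays of the same mouse, against -0.01 over 3210 other pairs. In data simulated for 20 Gy against sham at d7 with 27031 probes, 98% of probes changed by 2 on the log2 scale and 99% of those changed by 3 were recovered, with 4 false calls. Recovery with the sham arrays of d7 split over 2 scanners was not tested. In sham at d7 the SD was 2.02 for Klk5 and 2.06 for Klk8. Their SDs within groups over the series were 0.81 and 0.72. Alternatives covered the background correction, centring, filter, outlier spots, quantile normalization, scanner, scan session, slide and mouse as blocks, the scanner software's ratio, the deposited values and leaving out each mouse.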

Additional observations from a re-analysis of the deposited data

Results flagged for a closer look

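Outliers were sought in 113 sets, each made of the values of 1 member in 1 group, with 4 or more arrays. In 9 of them 1 array lay far from the others. The members were measured on the same arrays, so the sets are not independent and the 9 cannot be set against a rate by chance. Mouse 2 of sham was that array for Klk5 at d4, at a log2 ratio of 3.46, and at h2 for Klk7, at 6.34, and Klk8, at 2.65, and it was the only sham array of scanner 2 at these TPs. The other 6 were Klk6 at d21 after 1 Gy, at 0.86, and after 3 Gy, at 2.09, Klk8 at d28 after 6 Gy, at 4.89, Klk9 at h2 after 3 Gy, at 2.12, Klk11 at h2 after 20 Gy, at 0.49, and Spink5 at d4 after 3 Gy, at 5.90.

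The effect of 20 Gy differed from that of a sublethal dose at the same TP in 41 of 72 tests of members over 9 contrasts, at an adjusted p below 0.05 in limma, and these were part of 444 tests over 57 contrasts between doses or TPs. Of all tested probes, 31.9%, 37.6% and 33.7% passed the same threshold at h2 against 1, 3 and 6 Gy, 26.5%, 29.1% and 25.5% at d4 and 13.6%, 18.8% and 16% at d7. At h2 the differences from 1 Gy were -3.33 for Klk5, -2.94 for Klk7, -3.25 for Klk8 and -0.89 for Klk9. Those from 3 Gy were -3.55 for Klk5, -2.20 for Klk6, -3.20 for Klk7, -3.57 for Klk8 and -1.14 for Klk9, and those from 6 Gy were -3.07 for Klk5, -3.36 for Klk7, -3.47 for Klk8 and -1.02 for Klk9. Klk5, Klk7 and Klk8 were thus past the threshold against each dose. At h2 and d4 each sublethal group had 1 array on scanner 1, where every 20 Gy array was read. Dose and scanner are therefore partly confounded at these TPs too.

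At d4 the differences from 1 Gy were -3.17 for Klk5, -2.99 for Klk7 and -3.07 for Klk8. Those from 3 Gy were -3.23 for Klk5, -2.20 for Klk6, -2.78 for Klk7, -3.59 for Klk8 and -0.93 for Klk9, and those from 6 Gy were -3.30 for Klk5, -2.63 for Klk7, -3.21 for Klk8 and -0.94 for Klk9. At d7, where every sublethal array was read on scanner 2 and every 20 Gy array on scanner 1, they were -3.92 for Klk5, -4.50 for Klk7, -4.30 for Klk8 and -3.10 for Spink5 from 1 Gy. From 3 Gy they were -4.29 for Klk5, -4.13 for Klk7, -4.70 for Klk8, -0.45 for Klk11 and -2.55 for Spink5, and from 6 Gy -4.42 for Klk5, -3.45 for Klk6, -4.52 for Klk7, -4.57 for Klk8, -1.31 for Klk9, -2.01 for Klk10 and -4.24 for Spink5. Each of these d7 differences of Spink5 rested on 1 usable array of the sublethal dose. No member passed the threshold in a contrast between TPs. Of all tested probes, 10.2% passed it for 20 Gy at d7 against h2, 8.61% at d7 against d4 and 0.0198% at d4 against h2. For the sublethal doses these shares were at most 0.00666%.

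Klk14, outside the tested probes, was well above background on 3 of 82 arrays and on 0 sham arrays.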

How the results depend on the processing

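Among single values, 777 kept direction and side of the threshold under other settings, 76 lost a call, 30 gained one and 40 changed sign; leaving out a mouse gave 775, 30, 16 and 2. Members lower after 20 Gy, 11 in the fit reported, were 3 with the scanner log ratio and 5 with normexp on all spots, and 7 to 11 without 1 mouse. Members higher after 20 Gy were 0, and 2 with the scanner log ratio. That ratio called 17.1%, 15.7% and 6.46% of all tested probes higher at h2, d4 and d7. In the first week 0 members were called after the sublethal doses, against 1 lower with normexp on all spots, 10 higher in the deposited values, 2 higher on scanner 2 alone and 0 to 6 higher without 1 mouse. At the late TPs it was 0, against 1 lower in the deposited values, at d28 after 6 Gy, where 0.089% of all probes were called lower. With all sham arrays pooled, a setting that could not be fitted for Spink5, 2 were higher. Shares of all probes for the pooled fit, and for normexp on all spots in the first week, are not given here. For 20 Gy against 6 Gy the 14 lower members became 5 with the scanner log ratio and 1 with normexp on all spots. They were 8 with a scan session block and 10 to 15 without 1 mouse. With the scanner log ratio 2 were higher, and 18.2%, 17.3% and 14.2% of all tested probes were called higher at h2, d4 and d7. Shares for the session block and for the fits of 20 Gy without 1 mouse are not given here. For the late minus early effect, 8 were lower in the deposited values and 0 to 1 without 1 mouse. The median pairwise r of 0.52 was 0.28 with the ratio spread removed. The cause of these shifts was not tested. With the mouse as a replicate block, which pairs arrays of 1 animal, 11 members were lower after 20 Gy, 14 lower against 6 Gy and 0 in every other family; beyond Klk10 at d4 and Spink5 at d7 it changed no call.

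Signs turned as follows. With the scanner log ratio, 20 Gy against sham gave 0.37 for Klk10, 1.11 for Klk11 and 0.61 for Klk7 at h2, 0.36 for Klk10, 1.22 for Spink5, 0.45 for Klk11, 1.05 for Klk7, 0.80 for Klk9 and 1.02 for Klk6 at d4, and 0.26 for Klk9 at d7, and against 6 Gy 0.60 for Klk7 and 0.65 for Klk9 at h2 and 0.84 for Klk10 and 0.85 for Klk7 at d4. Spink5 at h2 was -1.84 with median centring, -1.20 in the deposited values and -0.30 after quantile normalization. Spink5 at d4 was 0.15 without background correction, 0.24 with a scanner block, 0.20 with a scan session block, 0.020 with a slide block, and 0.042 or 0.017 without mouse 5 or 22. Klk11 at h2 was 0.019 with median centring, 0.028 after quantile normalization and 0.058 without background correction, which gave 0.067 at d4. Klk9 was 0.083 at h2 and 0.066 at d7 in the deposited values, and at d7 0.056 after quantile normalization, 0.017 with a scan session block or on scanner 1 alone and 0.044 with normexp on all spots. Klk8 at d7 was -0.31 after 1 Gy and -0.037 after 6 Gy, both with a scan session block and on scanner 2 alone. With normexp on all spots, Klk5, Klk8 and Klk7 at d7 after 1 Gy were -1.50, -1.65 and -0.88, and Klk8 at h2 after 6 Gy was -0.035. Klk10 late minus early after 3 Gy was -0.064 in the deposited values.

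Median centring shifted the median of all probes by -0.49 at h2 and d4, and the scanner log ratio by -0.23 and -0.20. Of all calls at h2, d4 and d7, 53.5%, 49.9% and 38.7% were higher, against 31.1%, 26.8% and 30.5% in the deposited values, 1.31%, 1.15% and 14.8% with median centring, 41%, 42.3% and 45.6% with the scanner log ratio and 63.5%, 54.4% and 65.9% with normexp on all spots. Dim spots, 2 sham arrays at the late TPs and a scanner confounded with dose limit the precision.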

Other observations

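Klk14 gave log2 fold changes between -0.07 and 0.34 when tested without the filter on dim probes. A further probe of Klk9, which did not pass the filter, gave 0.04, -0.01 and -0.01 for 20 Gy against sham at h2, d4 and d7, while the probe used gave -0.71, -0.81 and -0.21.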
